A study of Mus musculus with 34 samples.

Results

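The genes described here are 8 keratins, chosen by name as 2 classes: the simple epithelial keratins Krt7, Krt8, Krt18, Krt19 and Krt20, and the stratified epithelial keratins Krt5, Krt10 and Krt14. They are 8 of 53 keratin genes, and GENCODE M21, the annotation used, places 21938 protein-coding genes on the 21 mm10 chromosomes. For each gene, the H3K4me3 signal was averaged from 1000 bp before to 1000 bp after its 5′ end in 4 libraries. The libraries were made by CUT&RUN, in which an antibody directs a micrococcal nuclease to the marked nucleosomes of unfixed nuclei and the released fragments are sequenced. The cells were scraped from the villi of the small intestine of 2 wild-type C57BL/6J mice and 2 ApcMin/+ mice on the same background, 1 library a mouse, from tissue that appeared normal. ApcMin/+ mice carry 1 germline mutant copy of the tumour suppressor Apc in every cell and later form intestinal tumours. The labels give an age of 5 weeks for both genotypes, the study's methods a slightly later one. The study asked how chromatin marks differ at this early stage, and the question here is whether the mark separates the keratin classes and differs between the genotypes at either. Scraped villi hold other cells than enterocytes, and in such bulk samples fewer cells carrying a mark and less of the mark per cell cannot be told apart.

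Keratins form the intermediate filaments of epithelial cells, as pairs of a type I and a type II chain, and the type II genes are clustered on chromosome 15 and the type I genes on chromosome 11, with Krt18 beside Krt8 in the type II cluster. Simple epithelia such as the intestinal lining use Krt8 (type II) with Krt18, Krt19 and Krt20 (type I), whereas the skin uses Krt5 with Krt14 in its basal layer and Krt10 above it. Trimethylation of lysine 4 of histone H3 marks the promoters of genes that are transcribed or poised for transcription, mostly just downstream of the start site.

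Depth was low and uneven. Wild-type replicate 1 held 1430000 tags and the 3 other libraries 3700000 to 5470000. The deposited signal is coverage scaled to 10000000 tags, so that 3 fragments in a window, taken here as the floor of detection, correspond to a signal of 1.05 in wild-type replicate 1 and of 0.274 to 0.405 in the other libraries. ApcMin/+ replicate 1 stood apart: 42.8% of its signal lay in enriched regions against 11.5% to 21.5% in the other 3, and its median tested promoter was at 13.2 against 3.06 to 4.53. Its median tested promoter was thus the highest of the 4, and the differences between genotypes below are also given without that library. Markers of cell types were read from lists chosen with earlier results of these data known, so they are no independent check of the tissue. All 9 enterocyte markers had a mean signal of at least 2, among them Vil1, the villus actin bundler, at 14.2, and 0 of 26 markers of tuft, goblet, mesothelial, fibroblast, smooth muscle, endothelial and immune cells did, with means of 0.286 to 1.97. A mean of at least 2 was reached by 46.3% of all protein-coding 5′ ends.

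Promoter sequences of 6 members, from RefSeq on GRCm38.p6, are shown to let the classes be compared by eye, from 250 bases before to 30 after the RefSeq start, 5′ to 3′ on the coding strand, with CpG dinucleotides in capitals. CpG-rich promoters tend to carry H3K4me3 in many tissues. Krt20 (chr11:99438124-99438403, minus strand), Krt8 (chr15:102004313-102004592, minus), Krt18 (chr15:102027966-102028245, plus) and Krt7 (chr15:101412153-101412432, plus) are simple, and Krt5 (chr15:101712876-101713155, minus) and Krt10 (chr11:99389335-99389614, minus) are stratified.
Krt20: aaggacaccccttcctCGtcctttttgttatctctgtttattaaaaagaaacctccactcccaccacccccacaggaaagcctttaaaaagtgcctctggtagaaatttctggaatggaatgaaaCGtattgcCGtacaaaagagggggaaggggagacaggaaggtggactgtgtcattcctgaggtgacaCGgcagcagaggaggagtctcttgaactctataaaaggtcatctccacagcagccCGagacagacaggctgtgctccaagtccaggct
Krt8: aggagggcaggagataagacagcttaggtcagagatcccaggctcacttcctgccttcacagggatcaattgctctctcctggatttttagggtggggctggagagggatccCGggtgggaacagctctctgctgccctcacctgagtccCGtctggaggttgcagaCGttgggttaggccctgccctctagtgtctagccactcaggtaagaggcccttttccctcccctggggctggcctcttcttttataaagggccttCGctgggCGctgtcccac
Krt18: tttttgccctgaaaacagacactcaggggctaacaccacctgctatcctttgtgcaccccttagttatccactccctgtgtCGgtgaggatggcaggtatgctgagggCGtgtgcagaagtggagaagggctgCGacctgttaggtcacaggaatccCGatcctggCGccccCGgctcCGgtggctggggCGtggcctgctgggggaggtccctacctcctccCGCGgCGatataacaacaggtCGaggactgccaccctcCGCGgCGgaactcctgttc
Krt7: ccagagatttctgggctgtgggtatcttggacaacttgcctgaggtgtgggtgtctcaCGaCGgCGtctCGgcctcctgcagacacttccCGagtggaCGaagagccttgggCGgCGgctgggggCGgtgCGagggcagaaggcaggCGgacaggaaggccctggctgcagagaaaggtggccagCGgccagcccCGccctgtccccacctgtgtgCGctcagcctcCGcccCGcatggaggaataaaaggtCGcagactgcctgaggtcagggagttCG
Krt5: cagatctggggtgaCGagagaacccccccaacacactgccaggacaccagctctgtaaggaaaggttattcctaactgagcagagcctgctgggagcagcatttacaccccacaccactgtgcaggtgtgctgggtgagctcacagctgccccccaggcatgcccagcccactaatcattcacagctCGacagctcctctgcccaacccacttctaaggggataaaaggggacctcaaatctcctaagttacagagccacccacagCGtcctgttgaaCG
Krt10: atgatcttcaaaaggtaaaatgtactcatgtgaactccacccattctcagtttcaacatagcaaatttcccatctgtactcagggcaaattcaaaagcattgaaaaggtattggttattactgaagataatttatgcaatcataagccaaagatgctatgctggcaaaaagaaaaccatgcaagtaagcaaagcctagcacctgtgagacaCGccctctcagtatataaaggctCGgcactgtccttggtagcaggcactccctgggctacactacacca

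These sequences held 5 CpG in Krt20, 5 in Krt8, 15 in Krt18, 18 in Krt7, 4 in Krt5 and 2 in Krt10, against a median of 7 over 27025 RefSeq promoters of the same length. The 2 simple keratins with the highest signal and a printed promoter, Krt20 and Krt8, thus had about as few CpG as Krt5. TATAAA, searched on both strands, was found in Krt8, Krt20 and Krt10 and in 13.7% of all promoters. Krt8 counts as 2 matches because one stretch reads as the motif on either strand. GGGCGG was found 4 times in Krt7 and in none of the other printed promoters, against 34.9% of all promoters. Neither motif followed the classes.

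The type II chain Krt8, the main partner of the intestinal type I keratins, had a signal of 5.64 and 3.71 in the wild-type libraries and of 19.0 and 4.08 in the ApcMin/+ libraries, from 16, 35, 141 and 45 fragments. It stood above 76.4% to 88.5% of all protein-coding 5′ ends in every library. The lincRNA Gm36026 starts 270 bp from the Krt8 5′ end on the other strand, so that the window covers both starts and their signals cannot be told apart.

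Krt18, the type I chain that pairs with Krt8, was lower. Its signal was 3.14 and 1.36 in wild type and 5.96 and 2.68 in ApcMin/+, from 9, 13, 44 and 29 fragments. Krt18 lay below Krt8 in all 4 libraries, by a mean of 0.92 ± 0.46 in log2(signal + 1) (SD, n = 4).

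Krt20, the type I keratin of differentiated cells at the villus surface, was the highest of the 8. Its signal was 7.91 and 3.36 in wild type and 20.7 and 5.66 in ApcMin/+, from 23, 32, 153 and 62 fragments, and exceeded 81.0% to 93.1% of all 5′ ends. It exceeded Krt8 in 3 of 4 libraries, by 0.20 ± 0.25 (SD, n = 4), which is within the spread.

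For Krt19, a type I keratin found along the whole crypt and villus, and for Krt7, a type II keratin best known from ducts and glands, the gene 5′ end of the annotation is not where the signal lay. Krt19 had 0 and 0.560 in wild type and 2.43 and 0.802 in ApcMin/+ at its gene 5′ end, which belongs to a non-coding transcript. The 5′ end of its principal coding transcript lies 2545 bp downstream, and the signal there was 7.46 and 3.11 in wild type and 20.2 and 4.86 in ApcMin/+, from 21, 30, 150 and 53 fragments. Krt19 thus ranked below 4 members at gene 5′ ends and below 1 at principal 5′ ends.

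Krt7 behaved alike. At its gene 5′ end, the start of a non-coding transcript, the signal was 1.02 and 0.104 in wild type and 2.26 and 1.85 in ApcMin/+. Its principal coding transcript starts 1359 bp downstream, where the signal was 1.39 and 1.27 in wild type and 10.8 and 4.14 in ApcMin/+, from 4, 12, 80 and 45 fragments. The antisense gene Gm671 starts 91 bp from this principal 5′ end, and its share of the signal cannot be told apart. The principal and the gene 5′ ends coincide in the other 6 members. Windows on principal 5′ ends were added after the signal had been seen, and each value at Krt7 and Krt19 is given with its window from here on.

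**Figure D1:**
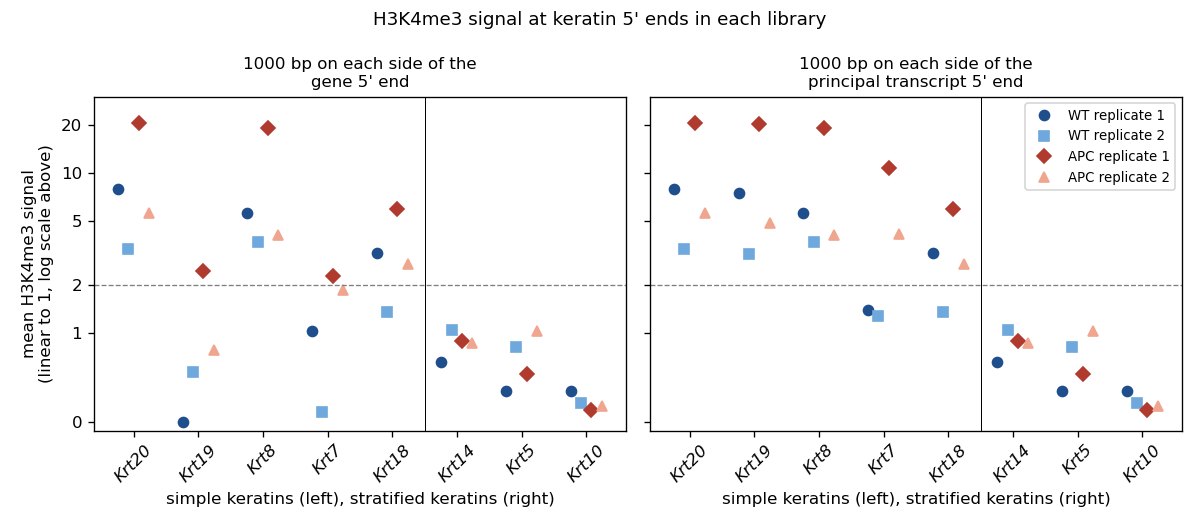
H3K4me3 signal (y axis, linear to 1 and on a log scale above) of the 8 keratins in each of the 4 libraries, 1 point a library, in windows on the gene 5′ end (left) and on the principal transcript 5′ end (right), with the filter of 2 as a dashed line. Krt19 and Krt7 rise in the right panel, Krt19 from 0 to 2.43 on the left to 3.11 to 20.2 on the right, while the 3 stratified keratins stay at or below 1.04 in both.

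At their principal 5′ ends the stratified keratins were near background in all 4 libraries. Krt14, the basal type I keratin, had 0.673 and 1.04 in wild type and 0.914 and 0.889 in ApcMin/+, from 2 to 10 fragments. Its basal partner Krt5 had 0.349 and 0.840 in wild type and 0.539 and 1.03 in ApcMin/+, from 1 to 11 fragments. Krt10, the suprabasal keratin, had 0.348 and 0.209 in wild type and 0.135 and 0.182 in ApcMin/+, which is 1 or 2 fragments a library. All 4 Krt10 libraries lie under the floor of 3 fragments, so the mark was not detectable at this start at this depth. The mean of the 3 stratified keratins was 1.96 to 2.75 times the signal outside enriched regions in the 4 libraries. Of 7 other genes of stratified epithelia, 1 had a mean signal of at least 2, the desmosomal plaque gene Pkp1 at 2.32. Trp63, the transcription factor of basal cells, was at 0.389 and listed at 0 in ApcMin/+ replicate 2, and Flg, the filaggrin of the cornified layer, was listed at 0 in 3 libraries.

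The classes separated within each library once principal 5′ ends were used. At these ends every simple keratin exceeded every stratified keratin in all 4 libraries. The closest pair was in wild-type replicate 2, where Krt7 at 1.27 and Krt14 at 1.04 rested on 12 and 10 fragments. Their 95% Poisson intervals overlap (6.20 to 20.96 and 4.80 to 18.4 fragments, counting error only). In both wild-type libraries the intervals of Krt7 and of Krt18 overlap with that of Krt14. In ApcMin/+ replicate 2 those of Krt18 (19.4 to 41.6) and Krt5 (5.49 to 19.7) overlap narrowly. At gene 5′ ends every simple keratin exceeded every stratified one in ApcMin/+ replicate 1 only, because of Krt7 and Krt19. Another annotated coding start of Krt10 had 3.14 and 2.55 in wild type and 10.7 and 3.38 in ApcMin/+. These values exceed those of Krt7 in both wild-type libraries but in neither ApcMin/+ library. They exceed those of Krt18 in wild-type replicate 2 and in both ApcMin/+ libraries, and are level with Krt18 in wild-type replicate 1. The separation, and the order given below, thus depend on the start used for Krt10. The mean of the 5 simple over the mean of the 3 stratified keratins was 11.2 and 3.68 in wild type and 29.0 and 6.13 in ApcMin/+ at principal ends, and 7.76 and 2.61 in wild type and 19.0 and 4.31 in ApcMin/+ at gene ends. The order of the mean levels at principal ends was Krt20 at 9.40, Krt19 at 8.92, Krt8 at 8.11, Krt7 at 4.39, Krt18 at 3.28, Krt14 at 0.878, Krt5 at 0.688 and Krt10 at 0.219. Neighbours that did not differ beyond the SD of their difference in log2(signal + 1) were Krt19 and Krt8 (0.11 ± 0.23, n = 4), Krt7 and Krt18 (0.099 ± 0.68), and Krt14 and Krt5 (0.17 ± 0.20). At gene ends the first 3 were Krt20, Krt8 and Krt18, followed by Krt7 at 1.31 and Krt19 at 0.948. The step between the classes at principal ends, from Krt18 to Krt14, was 1.09 ± 0.69 and was seen in 4 of 4 libraries.

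Between the genotypes, no difference at a keratin passed the test. limma with a trend on log2(signal + 1), Benjamini-Hochberg adjusted over all promoters whose signal averaged 2 or more, called 0 of 9930 gene 5′ ends (0%) and 0 of 10148 principal 5′ ends (0%), with 132 and 127 at an unadjusted p under 0.05. Only members that passed this filter were in these fits, namely Krt8, Krt18 and Krt20 at gene ends (3 of 8) and all 5 simple keratins at principal ends (5 of 8). The differences, ApcMin/+ minus wild type in log2, were 0.85 (SE 1.12) for Krt8, 0.70 (SE 0.74) for Krt18 and 0.95 (SE 1.19) for Krt20, each with an adjusted p of 0.683 by limma. At principal ends Krt19 had 0.92 (SE 1.16) and Krt7 1.74 (SE 0.78), also at an adjusted p of 0.683 by limma. Krt7 passed the filter there only through its ApcMin/+ libraries, and the fit without a filter gave it an adjusted p of 0.757 by limma. The median difference was 0.85 over the 3 simple keratins tested at gene ends and 0.92 over the 5 at principal ends, against 0.85 over all tested promoters at either. These standard errors are as large as the differences except for Krt7.

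The size of these differences, and at Krt8 and Krt19 their direction, depended on single libraries. Without ApcMin/+ replicate 1 the differences were -0.14 for Krt8, 0.24 for Krt18, 0.096 for Krt20 and, at principal ends, -0.0083 for Krt19 and 1.14 for Krt7, none past the threshold. The wild-type libraries moved the sizes as well. Without wild-type replicate 2 the differences were 0.29 for Krt18, 0.43 for Krt20 and, at principal ends, 0.40 for Krt19. Without wild-type replicate 1 they were 1.103, 1.46 and 1.44 for the same genes. None of these passed the threshold. Without ApcMin/+ replicate 2, which leaves the high library to stand for its genotype alone, all 3 tested members at gene ends and all 5 at principal ends were called (adjusted p by limma of 0.0237 to 0.0388 at gene ends and 3.6e-05 to 0.0382 at principal ends), but so were 65.2% and 65.3% of all tested promoters. The lone library is assumed in such a fit to vary like the others.

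After each library was centred on its median tested promoter, which removes the median shift of 0.85 (0.13 without ApcMin/+ replicate 1), the simple keratins other than Krt7 lay close to 0. The centred differences at principal ends were -0.014 for Krt8, -0.17 for Krt18, 0.083 for Krt20, 0.057 for Krt19 and 0.87 (SE 0.39) for Krt7, with an adjusted p of 0.999 for each by limma. Without ApcMin/+ replicate 1 the centred differences, read from the same values with no test, were -0.27 for Krt8, 0.11 for Krt18, -0.035 for Krt20, -0.14 for Krt19 and 1.01 for Krt7. At gene ends, where Krt7 and Krt19 were under the filter, the centred differences were 0.17 for Krt7 and 0.14 for Krt19, and 0.80 and 0.40 without ApcMin/+ replicate 1. On this scale and at principal ends Krt20 and Krt19 were at or above the median promoter in all 4 libraries, by 0.093 to 0.69 and by 0.0098 to 0.61, Krt8 in 3 of 4, and Krt7 and Krt18 below it in all 4.

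**Figure D2:**
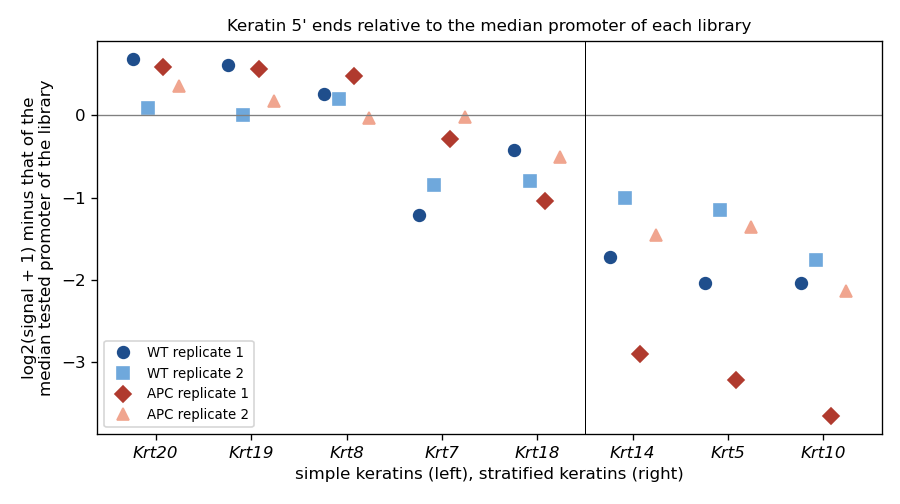
Signal of the 8 keratins at principal transcript 5′ ends relative to the median tested promoter of the same library (y axis, difference in log2(signal + 1)), 1 point a library. Krt20 and Krt19 sit at or above 0 in all 4 libraries, both ApcMin/+ points of Krt7 (-0.29 and -0.018) lie above both wild-type points (-1.21 and -0.85), and the stratified keratins lie between -3.66 and -1.003.

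Krt7 was the 1 simple keratin whose genotypes did not overlap at its principal 5′ end. Its wild-type signals there, 1.39 and 1.27, are under the filter of 2, so Krt7 was tested only because its ApcMin/+ signals are high. Both ApcMin/+ libraries exceeded both wild-type libraries, also after centring, a pattern held by 38.4% of the tested principal 5′ ends as deposited and by 13% after centring. Without a filter, 26.1% of all principal 5′ ends held this pattern as deposited. ApcMin/+ replicate 2 alone lay above both wild-type libraries at 38.6% of these 5′ ends as deposited and at 28.5% after centring. At gene 5′ ends both ApcMin/+ libraries of Krt7 and of Krt19, both under the filter, exceeded both wild-type libraries as deposited, as at 26% of all gene 5′ ends without a filter, but overlapped with them after centring. The ratio of Krt7 to Krt8 within a library, which no scaling of a library affects and which was chosen after the values were seen, was -2.02 and -1.54 in wild type and -0.82 and 0.023 in ApcMin/+ on the log2 scale at principal ends, a difference of 1.38, or 1.80 without ApcMin/+ replicate 1. At gene ends it was -2.46 and -5.15 in wild type and -3.07 and -1.14 in ApcMin/+, and the genotypes overlapped. An exact permutation test of 2 libraries against 2 cannot give a p below 0.333, so it was not run. The wild-type Krt7 values rest on 4 and 12 fragments, with 95% Poisson intervals of 1.09 to 10.2 and 6.20 to 20.96. Krt7 is also a marker of mesothelium, the lining of the outer gut wall, and the summed signal of the mesothelial genes Msln, Upk3b and Wt1 was 3.02 to 5.57 in wild type and 2.53 to 3.08 in ApcMin/+, with 0 of 3 reaching a mean of 2 and none at 0 in any library. The part of mesothelial cells in the Krt7 signal was not tested.

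Over all 8 members, 7 had a higher mean in ApcMin/+ than in wild type at principal ends, which 70.7% of all 5′ ends shared without a filter and 99.3% of those that passed it, and 7 at gene ends, beside 70.3%. The members that did not pass the filter were read from the fit without one, in which 0 of 21938 5′ ends were called (0%), with 579 at an unadjusted p under 0.05. When 1 library was left out, this fit called 322 (1.47%) when that was wild-type replicate 1 and 215 (0.98%) when it was the other wild-type library, all lower in ApcMin/+ and none of them a keratin of the 8, and 0 (0%) without either ApcMin/+ library. The differences at gene ends were 0.16 (SE 0.31) for Krt5, -0.14 (SE 0.097) for Krt10, 0.042 (SE 0.32) for Krt14, 1.03 (SE 0.48) for Krt7 and 0.99 (SE 0.46) for Krt19. Without ApcMin/+ replicate 1 they were 0.36 for Krt5, -0.11 for Krt10, 0.032 for Krt14, 0.93 for Krt7 and 0.53 for Krt19. Krt5 turned to -0.060 and Krt14 to -0.10 without wild-type replicate 1, and Krt5 to -0.034 without ApcMin/+ replicate 2. Without wild-type replicate 2, Krt7 was at 0.59, Krt5 at 0.39, Krt10 at -0.22 and Krt14 at 0.18. In Krt10 both ApcMin/+ libraries lay below both wild-type libraries, as did 7.17% of all gene 5′ ends and 7.02% of all principal 5′ ends, but all 4 are under the floor. The smaller wild-type library also sets a higher value for 1 fragment, 0.348 in wild-type replicate 1 against 0.135 in ApcMin/+ replicate 1, so that 1 fragment alone gave these 2 levels.

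The ratio of simple to stratified keratins differed more between libraries of 1 genotype than between genotypes. As log2, it was 2.68 ± 1.13 in wild type and 3.74 ± 1.58 in ApcMin/+ at principal ends (SD, n = 2 each), a difference of 1.05, and 2.17 ± 1.11 and 3.18 ± 1.52 at gene ends, a difference of 1.01. Over all 4 libraries the level was 3.21 ± 1.28 at principal ends and 2.67 ± 1.23 at gene ends. Without ApcMin/+ replicate 1 the difference was -0.0662 at principal ends and -0.0627 at gene ends, and without wild-type replicate 2 it was 0.25 and 0.22. Without wild-type replicate 1 it rose to 1.86 and 1.79, and without ApcMin/+ replicate 2 to 2.18 and 2.08. The library with the largest ratio, ApcMin/+ replicate 1, is also the one with the largest share of its signal in enriched regions, and the part of that share in the ratio was not tested.

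The mark covered long regions on both sides of the 5′ end in 3 simple keratin genes. Enriched regions were called once on the mean of the 4 libraries, at 5 times the genome-wide mean in bins of 100 bp. The region over the Krt20 5′ end spanned 8100 bp (chr11:99434001-99442100), that over Krt8 7100 bp (chr15:102000701-102007800) and that over Krt19 6900 bp (chr11:100141101-100148000), longer than those of 99.6%, 99.3% and 99.1% of the tested promoters that lay in a region, whose median was 2000 bp. They reached 3950 bp upstream and 4149 bp downstream of the 5′ end in Krt20, 3318 and 3781 bp in Krt8, and 1880 and 5019 bp in Krt19. Broad H3K4me3 is known from genes that define a cell's identity. Krt7 had a region of the median length, 2000 bp (chr15:101411901-101413900), and Krt18 a short one of 1100 bp (chr15:102027901-102029000), shorter than most. The 5′ ends of Krt5, Krt10 and Krt14 lay in no region.

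Read in each library alone, from 500 bp bins at 5 times that library's background, the breadth differed between libraries as well as between genes, and within each genotype the library with fewer tags was the broader one at Krt20, Krt8, Krt19 and Krt18. Krt20 spanned 5500 and 2500 bp in wild type and 10000 and 4000 bp in ApcMin/+. Krt8 spanned 4500 and 3500 bp in wild type and 8000 and 5500 bp in ApcMin/+, and Krt19 4000 and 2000 bp in wild type and 7500 and 7000 bp in ApcMin/+. The mark reached further downstream than upstream at each of these 3 genes in every library but ApcMin/+ replicate 1 at Krt20, where both reaches were 5000 bp. Krt18 was narrower, with 1000 and 500 bp in wild type and 4000 and 1500 bp in ApcMin/+. Krt7 spanned 2000 bp in both wild-type libraries and 6500 and 2500 bp in ApcMin/+. Both ApcMin/+ libraries were thus broader than both wild-type libraries at 4 simple keratins, all but Krt20, as at 27.7% of the tested principal 5′ ends, whose median breadth was 2000 and 1500 bp in wild type and 3000 and 2000 bp in ApcMin/+. ApcMin/+ replicate 2 alone was broader than both wild-type libraries at the same 4 keratins, as at 29.4% of the tested principal 5′ ends. In ApcMin/+ replicate 1, with its low background, 5 times background is the lowest level of the 4. In wild-type replicate 1, the library of lowest depth, 1 fragment in a bin was enough to pass. Krt5 spanned 500 bp there with 1 fragment in its window. The part of both in the breadths was not tested.

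The highest 100 bp bin within 2000 bp lay downstream of the 5′ end in all 5 simple keratins, at 0 to 100 bp in Krt7, 100 to 200 bp in Krt20, 500 to 600 bp in Krt18, 900 to 1000 bp in Krt19 and 1200 to 1300 bp in Krt8. In Krt19 all 4 libraries had their own highest bin at that place, with signals of 43.3 and 10.4 in wild type and 61.8 and 12.2 in ApcMin/+. In the other genes single libraries disagreed, as in Krt7, where both wild-type libraries peaked elsewhere.

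**Figure D3:**
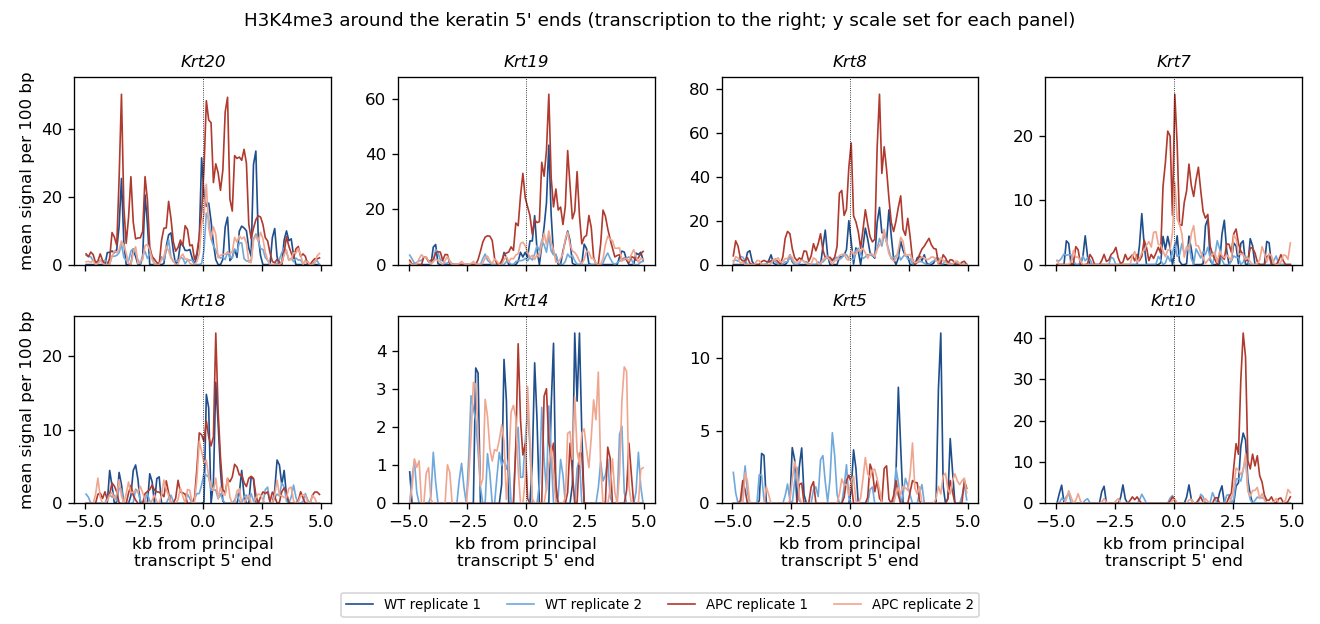
H3K4me3 signal in 100 bp bins (y axis, scaled for each panel) from 5 kb before to 5 kb after the principal transcript 5′ end of each keratin (x axis, kb, transcription to the right), 1 line a library. Averaged over the 4 libraries, the highest bin within 2000 bp lies downstream of the start in Krt20, Krt19 and Krt8. In Krt20 the highest bin of ApcMin/+ replicate 1 over the plotted range, at 50.4, lies 3450 bp upstream. The bins on either side of the Krt10 start hold 0 to 1.89, and a peak of up to 41.1 in ApcMin/+ replicate 1 lies about 3 kb inside that gene. Krt14 and Krt5 show only isolated fragments.

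Within Krt10 the mark was found at another place. A region of 1300 bp (chr11:99385601-99386900) in the 3′ part of the gene had a signal of 4.83 and 3.56 in wild type and 15.6 and 5.01 in ApcMin/+, from 9, 22, 75 and 36 fragments. It holds the 5′ end of a shorter annotated coding transcript of Krt10, 3267 bp downstream of the main start, whose own window had 3.14 and 2.55 in wild type and 10.7 and 3.38 in ApcMin/+. The nearest 5′ end of another gene, that of the antisense gene Gm11940, is 440 bp away from the region. Whether the signal belongs to Krt10 or to another transcript was not tested.

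Among all 53 keratin genes, 27 on chromosome 11 and 26 on chromosome 15, the 5 simple members were the only ones with a mean signal of at least 2 at the principal 5′ end, a level reached by 46.3% of all protein-coding 5′ ends. The 45 keratins outside the 8 had a median of 0.644. The 4 highest of them were Krt222 at 1.97, Krt23 at 1.37, Krt15 at 1.27 and Krt76 at 1.25. Krt222 had 0.697 and 1.18 in wild type and 4.46 and 1.55 in ApcMin/+, with both ApcMin/+ libraries above both wild-type libraries, as in 26.1% of all principal 5′ ends without a filter. Krt76, a keratin of the oral lining, owed its mean to wild-type replicate 1 (2.79, against 0.272 in wild-type replicate 2, 0.849 in ApcMin/+ replicate 1 and 1.08 in replicate 2). The hair genes of the chromosome 11 cluster, the keratin-associated proteins, were at a median of 0.366 over 57 genes of the genome, with 0 at 2 or more.

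**Figure D4:**
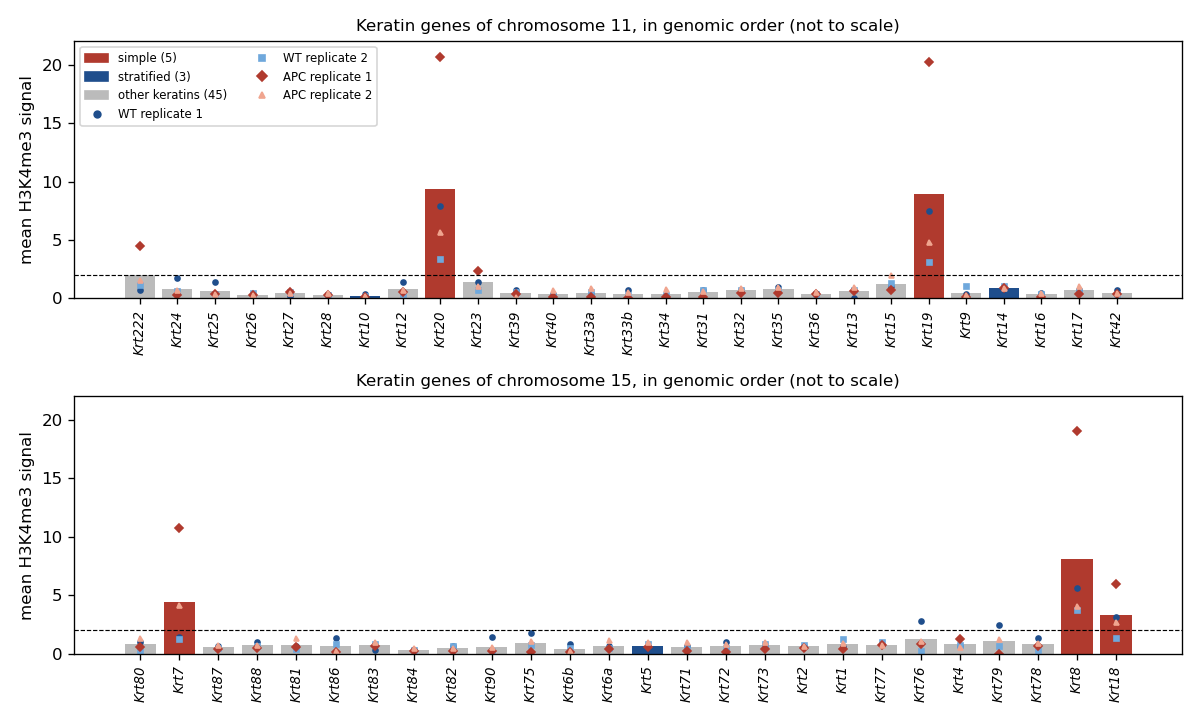
Mean H3K4me3 signal of the 4 libraries (bars, y axis) with each library as a point, at the principal 5′ ends of the 53 keratin genes in the order of chromosome 11 (top) and chromosome 15 (bottom), with the filter of 2 as a dashed line. The 5 simple keratins, in red, are the only bars above 2, at 3.28 to 9.40, and the highest of the 45 grey bars is Krt222 at 1.97.

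The marked keratins Krt7, Krt19 and Krt20 have neighbouring keratin genes with a mean signal below 2 at the principal 5′ end, and Krt8 and Krt18 lie beside each other. Krt10, near Krt20, is low at that start only and holds the enriched region described above. Krt19 and Krt14 have 5′ ends 61428 bp apart with 1 keratin gene between them, and Krt20 and Krt10 48786 bp apart with 1 between them, so that the highest and lowest members are near neighbours. Krt8 and Krt18 are adjacent, 23698 bp between 5′ ends and with no keratin gene between them, at the edge of the chromosome 15 cluster. Krt7 stands 592080 bp from Krt8 at the other end, with 22 keratin genes between them and 0 of these at 2 or more. Enriched regions without an annotated start lay near the marked genes too. One of 2800 bp (chr15:102015601-102018400) between Krt8 and Krt18, 9.78 kb from the Krt18 5′ end, had 3.99 and 2.50 in wild type and 10.5 and 2.80 in ApcMin/+. Another of 600 bp (chr11:99461501-99462100), 23.4 kb upstream of Krt20, had 8.13 and 4.88 in wild type and 17.1 and 4.26 in ApcMin/+, from 7 to 38 fragments. These are means over 600 bp and cannot be set against the Krt20 values, which were averaged over 1000 bp on each side. Both regions were named after their values had been seen.

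CpG content in the windows of 1000 bp on each side, counted on GRCm38.p6, separated the classes in part. The 5 simple keratins had 36 to 65 CpG with a median of 64, the 3 stratified keratins 34 to 38 with a median of 35, and the 45 other keratins 14 to 69 with a median of 34. Krt7 and Krt18 had 65 each, Krt19 64, Krt8 54 and Krt20 36, so that the simple keratin with the highest signal had the fewest CpG of its class, fewer than Krt10 with 38. Over all protein-coding genes the share of marked 5′ ends was higher where CpG were more frequent, and of 5 equal bins by CpG, the lowest had 2.53% and the middle one 62.3% of its 5′ ends at a mean signal of at least 2. Krt20 lies in the bin with 18 to 45 CpG, where 15.2% reached 2 and 1.71% reached the level of Krt20. Krt87, with the highest CpG count of the keratins (69), had a signal of 0.611 and Krt72, with 50, 0.622, both named after their values were seen.

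Genes that link keratin filaments or regulate epithelial genes, and the other intermediate filaments, were read at principal ends, where 46.3% of all protein-coding 5′ ends had a mean signal of at least 2. Of 9 genes that tie keratin filaments to desmosomes and other junctions, 7 had a mean signal of at least 2 and 0 passed the test between genotypes. The highest were Pkp3 and Jup, both of the desmosomal plaque, at 13.0 and 11.6, and the lowest Plec and Dst, the large linkers plectin and dystonin, at 1.53 and 0.809. Of 13 transcription factors tied to keratin expression or to the epithelial fate, 9 reached 2 and 0 passed the test. Gata4, a factor of the small intestinal epithelium, was the highest at 16.4, and Tfap2c and Trp63, factors of stratified epithelia, were the lowest at 0.522 and 0.389. Of 13 intermediate filament genes outside the keratins, 2 reached 2, the nuclear lamins Lmna at 6.08 and Lmnb2 at 5.18, and 0 passed the test, while the neuronal Ina (0.548) and the muscle desmin Des (0.511) were lowest. The median of the mean signals was 4.04 over the linkers, 9.08 over the factors and 0.974 over the other filaments, beside 8.11 over the simple keratins, 0.688 over the stratified ones and 1.40 over all protein-coding 5′ ends. The median difference between genotypes was 0.62 over the 7 tested linkers and 0.96 over the 9 tested factors, beside 0.85 over all tested promoters, and without ApcMin/+ replicate 1 it was -0.20 and 0.14, beside 0.13.

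The promoters nearest to each marked keratin, by Euclidean distance in log2(signal + 1) over the 4 libraries and leaving out overlapping windows, were Klf5 for Krt19 (distance 0.055), Cul3 for Krt8 (0.072), Zfp790 for Krt20 (0.096), Kif21a for Krt18 (0.11) and Trim72 for Krt7 (0.18), at principal 5′ ends. Klf5, an intestinal zinc finger factor, had 7.32 and 3.15 in wild type and 20.9 and 4.94 in ApcMin/+ beside the 7.46, 3.11, 20.2 and 4.86 of Krt19. At gene 5′ ends Krt18 was nearest to Cyth2 (0.078). These distances rest on 4 libraries, of which 1 is high at nearly all promoters, and say only that the levels are alike.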

How the data were processed

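H3K4me3 was measured by CUT&RUN (a Millipore antibody) in villus cells of 2 wild-type and 2 ApcMin/+ mice, and samples were grouped by the genotype in their labels. Per the labels and the study's methods, the authors trimmed read pairs with Novocraft, aligned them to mm10 with Bowtie2, dropped duplicates (Picard) and poorly mapped reads (samtools), and selected fragments from 150 to 500 bp. The deposited values are signal, the coverage per base that the authors wrote with HOMER, scaled to 10000000 tags per library, 1 mouse per track, with no control subtracted. A count model would not suit such values. Fragments were obtained by dividing summed signal by the track sum per tag. Other marks, RNA-seq libraries and older mice were not analysed here.

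Signal was averaged over 1000 bp on each side of the gene 5′ end and, added after seeing the data, of the 5′ end of the principal (APPRIS) coding transcript. Promoters with a mean of at least 2 were tested with limma 3.58.1 (trend, R 4.3.3) on log2(signal + 1). P-values were adjusted by Benjamini-Hochberg and called under 0.05. A difference on this scale understates the change of low promoters. With 2 mice per genotype, p-values measure the spread between these 4 libraries. The fit was tested on simulated data without a shift of a whole library, so that test does not give its power or error in these data. Enriched regions were bins of 100 bp at 5 times the mean, joined over 500 bp and at least 300 bp long, and background was the mean outside them and over 5000 bp from a 5′ end. CpG and motifs were counted on GRCm38.p6 in Python 3.11.15 with numpy 2.4.6, pandas 2.3.3 and scipy 1.17.1, and plots drawn with matplotlib 3.10.9. RefSeq promoters were matched by symbol for 7 of 8 members, and the one of Krt14, which starts inside the gene, was not shown.

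The keratins and all gene lists were chosen with earlier results of these data known. Named genes were the 8 members, the 4 other keratins with the highest mean, up to 2 of the highest and 2 of the lowest of each list, the nearest promoter of each marked member and genes that start in a member's window, with any other named as chosen after its values were seen. Alternatives were other scalings, pseudocounts, filters, windows, 5′ ends, a replicate block and leaving out each library. Leaving out libraries at principal 5′ ends or without the filter was added after seeing the data.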

Additional observations from a re-analysis of the deposited data

How the results depend on the processing

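There were 2 libraries per genotype, at depths of 1430000 to 5470000 tags, and 1 library was high at nearly all promoters. With all libraries kept, no difference at a keratin was called, including that of Krt7 at its principal 5′ end, 1.74 in log2. Whether differences of these sizes could be detected was not tested. The count of called promoters, 0 of 9930, was 12 after centring on the median promoter, 2 with quantile normalization, 1 with the replicate block and 0 to 6479 when each library was left out in turn, the highest without ApcMin/+ replicate 2. The cause was not tested beyond these settings. The other 9 settings that kept all libraries gave 0. The count of called members, 0 of 3, was 0 under all settings that kept all libraries and 0 to 3 over the left-out libraries. In the fit without a filter the count, 0 of 21938, ranged from 0 to 322 over the left-out libraries and was 215 without wild-type replicate 2. The sources do not say that a replicate number marks a shared experiment, and the samples were taken to share only a number (correlation of the deviations of same-numbered libraries 0.20 over 9930 promoters), and with the replicate block the adjusted p of Krt8, Krt18 and Krt20 was 0.533, beside 0.683 without it. Between libraries of the same number, the log2 ratio of simple to stratified keratins at principal 5′ ends was higher in ApcMin/+ by 1.37 for number 1 and by 0.74 for number 2.

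The median difference of the simple keratins, 0.85, ranged from -0.0039 to 1.80, and was 0.096 to 1.80 over the left-out libraries. The log2 difference of Krt8 changed sign to -0.0039 after centring and to -0.071 with quantile normalization, and ranged from -0.14 to 1.84 over the left-out libraries. That of Krt18 changed sign to -0.16 after centring, and that of Krt19 at its principal 5′ end ranged from -0.0083 to 1.85 over the left-out libraries. In the fits run, Krt20 and, at its principal 5′ end, Krt7 kept a positive difference, 0.083 to 1.80 and 0.87 to 2.33. Centred values at principal 5′ ends with a library left out, read with no fit, went down further. They were -0.21 for Krt20 without wild-type replicate 2 and 0.69 for Krt7 without wild-type replicate 1. At gene 5′ ends, over the left-out libraries, the difference ranged from 0.59 to 1.46 for Krt7, from 0.53 to 1.46 for Krt19, from -0.060 to 0.39 for Krt5 (-0.034 without ApcMin/+ replicate 2), from -0.22 to -0.061 for Krt10 and from -0.10 to 0.18 for Krt14. The change of the simple to stratified ratio, 1.01, ranged from -0.063 to 2.08 over the left-out libraries, from -0.066 to 2.18 at principal 5′ ends, and from 0.60 to 1.05 otherwise, and its level, 2.67, from 2.15 to 3.37 over all settings. Windows, RefSeq 5′ ends and pseudocounts changed no call.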
